A study of Canis lupus familiaris with 17 samples.

Results

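The genes described here encode 9 proteins of neutrophil granules, and were taken from the 20257 genes counted in the circulating leukocytes of dogs by matching their symbols, each of which stood in 1 entry of all 17 matrices. They were LTF (ENSCAFG00000013763), CAMP (ENSCAFG00000012896), MMP8 (ENSCAFG00000023335), MMP9 (ENSCAFG00000009905), CD177 (ENSCAFG00000004765), PGLYRP1 (ENSCAFG00000029461), TCN1 (ENSCAFG00000010339), BPI (ENSCAFG00000008901) and LYZ (ENSCAFG00000000426). The blood came from 7 healthy, client-owned dogs and from 10 client-owned dogs that carried a primary osteosarcoma (OS), a malignant bone tumor, and had not been treated for it. All dogs were of wild-type genotype by the labels, of various breeds and both sexes, and each dog gave 1 library. The healthy dogs were middle-aged and several of the dogs with OS were older, and age was not a term in any test here. The samples are labelled PBMC, since leukocytes were isolated on a density gradient and red cells lysed, and single cells were captured for 3′ RNA sequencing.

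A neutrophil packs its granules in the order in which it matures in the bone marrow. Primary (azurophilic) granules, with myeloperoxidase, elastase and BPI, are filled at the promyelocyte stage, secondary (specific) granules, with lactoferrin, cathelicidin, haptocorrin, PGLYRP1, MMP8 and CD177, at the myelocyte and metamyelocyte stages, and tertiary (gelatinase) granules, with MMP9, in band cells. Transcripts of granule proteins are mostly gone from a mature blood neutrophil that still carries the proteins, and lysozyme, which cleaves bacterial cell walls, is also made by monocytes and macrophages.

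After filtering, 76910 leukocytes were analysed, 33084 from healthy dogs (between 3162 and 6591 per dog) and 43826 from dogs with OS (between 1222 and 5477 per dog). Unique molecular identifiers (UMIs, 1 per captured transcript) per cell had medians from 3688 to 6697 in the healthy dogs and from 4208 to 6854 in the dogs with OS. Of 83418 different barcodes, 922 occurred in more than 1 library, and at most 16 were shared between 2 libraries. Some libraries stood apart before any comparison. OS dog 3 gave 1222 cells, neutrophils made up 32.3% of the cells of healthy dog 7 against between 1.68 and 7.27% in the other healthy dogs, and OS dogs 5, 2 and 9 held 203, 201 and 98 of the 692 cells of a class that most of the genes described here turned on.

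That class resembled polymorphonuclear myeloid-derived suppressor cells (PMN-MDSCs), immature low-density neutrophils, and a cluster of 2837 cells resembled monocytic MDSCs (M-MDSCs). Clusters took names by their likeness to lists of marker genes, and genes of neutrophil granules, the 9 members among them, were left out of both the clustering and the names. The PMN-MDSC cluster (5 of its markers detected, mean log2 fold 5.40 against all other cells) and the M-MDSC cluster (8 detected, 3.39) passed the naming rule, and CRISP2, S100A12 and INHBA were among the leading genes of the first and IL1B, IL18 and PTGS2 among those of the second. The M-MDSC cluster scored higher on the list of neutrophil markers (2.04) than on that of monocyte markers (1.32), and it is counted with the monocytes here because its own list was fixed as one of a monocyte subset. It made up 3.69% of all analysed cells. The authors report a smaller share for their M-MDSCs and keep CD4+ monocytes as a class of their own. That class had no separate marker list here, and whether its cells lie in the M-MDSC cluster was not tested. Values given for M-MDSCs are those of this cluster. Because CAMP, LTF, MMP8, MMP9, CD177, PGLYRP1 and TCN1 had been used by the authors to describe PMN-MDSCs in these same dogs, their high level in that cluster is no independent evidence of its identity. Levels are given as CPM, the UMIs of a gene scaled to all UMIs in the summed cells of a dog, for dogs with at least 25 cells of a class. A UMI is counted near the 3′ end of a transcript, so levels were not divided by gene length and are compared between cells, not between genes.

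Pooled over all dogs, the UMIs of 5 members lay almost wholly in the PMN-MDSCs, a class that made up 0.900% of the cells. They held 99.5% of all CAMP UMIs, 98.7% of PGLYRP1, 97.7% of MMP8, 95.3% of CD177 and 95.1% of TCN1. In healthy dogs these shares were 99.5, 97.4, 90.9, 85.6 and 79.7%, and in OS 99.5, 98.7, 98.4, 96.6 and 96.7%. Other neutrophils held 16.1% of the TCN1 and 12.3% of the CD177 UMIs of healthy dogs, and up to 100 and 80% in a single dog. LTF, the iron-binding protein of the same granules, was spread more widely, with 67.9% of its UMIs in PMN-MDSCs, 20.7% in M-MDSCs, 8.55% in other monocytes and 1.61% in the other neutrophils. MMP9, the gelatinase of tertiary granules, had 65.3% in PMN-MDSCs and 23.0% in unnamed clusters, where 1 cluster of 42 cells held 3007 of 3030 UMIs. These shares differed between the groups of dogs, with 26.6% of the MMP9 UMIs of healthy dogs in PMN-MDSCs and 53.9% in unnamed clusters, against 76.3 and 14.2% in OS. Single dogs weighed on them, since without healthy dog 5 the healthy shares were 41.8 and 30.9%, and without OS dog 4 the OS shares were 80.5 and 9.25%. For LTF, PMN-MDSCs held 39.7% and M-MDSCs 38.8% in healthy dogs, against 73.6 and 17.04% in OS. BPI and LYZ lay elsewhere. Other monocytes held 92.1% of the BPI UMIs and 84.7% of the LYZ UMIs, and M-MDSCs 6.80% and 10.9%, while PMN-MDSCs held 0.190% and 1.06%. The plot of UMI shares by class shows the shares over all dogs.

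**Figure D1:**
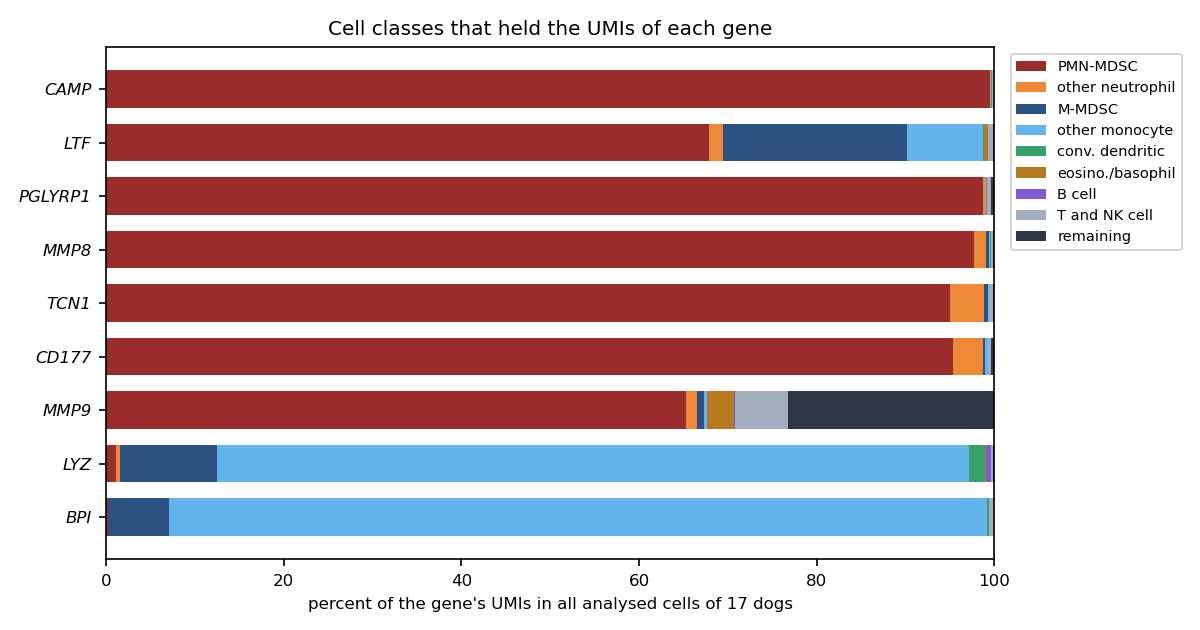
Share of each gene's UMIs (x axis, percent of the UMIs in the 76910 analysed cells of 17 dogs) held by each cell class (colors), 1 bar per gene. The bars of CAMP, PGLYRP1, MMP8, CD177 and TCN1 are filled by PMN-MDSCs (95.1 to 99.5%), LTF and MMP9 keep 67.9 and 65.3% there, and BPI and LYZ are filled by other monocytes (92.1 and 84.7%).

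Secondary granule genes were high in the PMN-MDSCs of every dog that had at least 25 of them, OS dogs 2, 4, 5, 7 and 9. CAMP, the precursor of a pore-forming peptide, measured 40281, 37806, 46482, 34076 and 40823 CPM in these dogs, in that order. LTF measured 16602, 20427, 19534, 22769 and 18595 CPM. The 5 dogs lay close together in both genes, OS dog 7 lowest in CAMP and OS dog 2 lowest in LTF, and none came near the level of the other neutrophils. In the latter class, over 17 dogs, CAMP lay between 0 and 36.1 CPM (median 1.89), with 34 UMIs in 4852 cells, and LTF between 109 and 681 CPM (median 194).

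PGLYRP1, which binds bacterial peptidoglycan, measured 11008.5, 16064, 11121, 14209 and 12228 CPM in the PMN-MDSCs of the same dogs, and between 0 and 92.8 CPM (median 6.58) in other neutrophils. MMP8, the neutrophil collagenase, measured 2157, 1892, 1512, 1805 and 1757 CPM, against 0 to 25.9 CPM (median 11.0). CD177, a surface and granule membrane protein of neutrophils, measured 789, 672, 709, 731 and 666 CPM, against 0 to 35.5 CPM (median 10.7). The ranges of the classes did not overlap for any of these genes. TCN1, which binds vitamin B12, varied most between dogs, with 1418, 588, 596, 559 and 2983 CPM against 0 to 74.7 CPM (median 19.3). OS dog 9 stood highest in TCN1 and OS dog 7 lowest, while the CAMP, LTF and MMP8 of OS dog 9 lay within the range of the other dogs.

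Among the remaining members, MMP9 measured 2010, 2663, 2224, 2659.5 and 2414 CPM in the 5 dogs and between 6.05 and 41.2 CPM (median 25.8) in other neutrophils. LYZ measured 9303, 8038, 10288, 7802 and 8327 CPM, against 955 to 10103 CPM (median 1833) in other neutrophils. That range overlapped through OS dog 6 alone, since the other 16 dogs lay at 2659 CPM or below. BPI measured 84.2, 32.0, 71.6, 61.6 and 29.5 CPM, and here too the range of other neutrophils, 0 to 56.8 CPM (median 10.0), overlapped.

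All 9 members were higher in PMN-MDSCs than in the other neutrophils of the same 5 dogs by edgeR's quasi-likelihood test with the dog as a block, in 5 of 5 dogs each, where 15.2% of the 8887 genes tested were called higher (adjusted p under 0.01 and log2 fold change beyond 0.58) and 16% lower. The log2 fold change was 11.75 (SE 0.299) for CAMP, 8.95 (SE 0.252) for PGLYRP1, 7.32 (SE 0.250) for MMP8, 6.93 (SE 0.234) for MMP9, 6.85 (SE 0.218) for LTF, 6.002 (SE 0.251) for CD177 and 5.62 (SE 0.233) for TCN1. LYZ (2.68, SE 0.172, or 6.42-fold) and BPI (2.62, SE 0.361, or 6.15-fold) differed least, and the largest adjusted p of the 9 was that of BPI, 4.19e-12. The median over the members was 6.85 against 0.06 over all genes tested. The classes were drawn from other genes of the same cells, so these p-values describe a contrast between clusters and not an experiment.

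Of the cells themselves, 98.7% of PMN-MDSCs had an LTF UMI after each cell was thinned to 1000 UMIs (95% exact Clopper-Pearson interval 97.5 to 99.4%, 667 cells), and 91.8% had a CAMP UMI (89.4 to 93.7%). Most of these cells came from a few OS dogs. Without thinning, a CAMP UMI was found in 95.02 to 98.0% of the PMN-MDSCs of OS dogs 2, 4, 5, 7 and 9, and in 100% of the 15 of healthy dog 3. The share was 47.8% of the 23 cells of healthy dog 1, 72.2% of the 18 of healthy dog 7, 41.7% of the 12 of OS dog 1 and 77.8% of the 18 of OS dog 10. Healthy dog 1 and OS dog 1 had shallower cells, with medians of 1773 and 2194 UMIs against 4536 to 6487 in those 5 OS dogs. Healthy dog 7 and OS dog 10 did not, with medians of 5831 and 5807.5 UMIs. What lowered the shares of these dogs was not tested. Intervals cover counting error only. In T and NK cells, which should not make either protein, the shares were 0.229% (0.186 to 0.279%) for LTF and 0.163% (0.127 to 0.206%) for CAMP in 42850 thinned cells. Other neutrophils were at 13.4% for LTF and at 0.379% (0.225 to 0.598%) for CAMP, so nearly all of them lacked detectable CAMP at this depth. Without thinning the shares in PMN-MDSCs were 98.1% for LTF and 91.5% for CAMP at a median of 5440.5 UMIs per cell, and in T and NK cells 1.124% and 0.814% at a median of 5328. The other neutrophils were shallower (median 1720 UMIs per cell), and 21.2% of them had an LTF UMI and 0.701% a CAMP UMI.

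Secondary granule members and MMP9, the tertiary granule member, were found together in the same cells. Of the 692 PMN-MDSCs, 429 (62.0%) had UMIs of all 7 of LTF, CAMP, MMP8, MMP9, CD177, PGLYRP1 and TCN1, and 90.6% had UMIs of at least 5. No other neutrophil had more than 4, a number reached by 4 of 4852 cells, and 71.6% had none. Of the M-MDSCs, 78.5% had UMIs of exactly 1 of the 7. At the other end, 13 PMN-MDSCs had no UMI of any of the 7, so a few cells of the cluster did not carry the genes that set the rest apart.

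LTF, unlike CAMP, was also carried by M-MDSCs. It lay between 629.6 and 1572 CPM (median 982, mean 1070 ± 276 SD, n = 17) in M-MDSCs, and between 8.97 and 139 CPM (median 56.2) in other monocytes. LTF was higher in the M-MDSCs in 17 of 17 dogs, by 4.14 on the log2 scale (SE 0.1496, 17.6-fold, edgeR adjusted p = 5.81e-21), where 7.17% of 14140 genes were called higher and 13.8% lower (20.9% in all). The authors list LTF among the genes of M-MDSCs in these same dogs, so its level there is no independent evidence. The p-value describes a contrast between clusters and not an experiment. CAMP was at 1.29 ± 2.07 CPM (SD, n = 17) in M-MDSCs and at 1.28 ± 2.05 CPM in T and NK cells. After thinning, LTF was found in 52.4% of M-MDSCs (50.5 to 54.2%, between 25.4 and 69.5% in single dogs) and CAMP in 0.177% (0.0574 to 0.412%), a share inside the interval of T and NK cells. The ratio of CAMP to LTF UMIs was 2.28 in PMN-MDSCs and 0.00133 in M-MDSCs, against 0.703 in T and NK cells, and 96.8% of the LTF UMIs of M-MDSCs lay in cells with at least 3 of them.

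Among the other members in M-MDSCs against other monocytes, MMP9 (log2 fold change 4.07, SE 0.421), TCN1 (3.57, SE 0.696) and MMP8 (2.95, SE 0.583) were also higher by the same test. Their levels were low, at 5.42, 1.28 and 0.938 CPM on average, and TCN1 was not called by DESeq2 (adjusted p = 0.177). BPI was lower in M-MDSCs by 1.04 on the log2 scale (SE 0.101, 2.06-fold), and in 17 of 17 dogs. LYZ (log2 fold change -0.14, SE 0.0623), CAMP (0.26, SE 0.413), PGLYRP1 (0.89, SE 0.4996) and CD177 (1.84, SE 0.832) were not called. The M-MDSC class was unstable, since between 52.7 and 96.8% of its cells kept the name under other clusterings and no cluster took it when doublets were kept. PMN-MDSCs kept theirs in 95.4 to 100% of cells.

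The side on which LTF was higher depended on which neutrophils and monocytes were compared. Over all neutrophils, PMN-MDSCs included, it was 3.89 higher on the log2 scale than in monocytes (SE 0.449, adjusted p = 2.27e-08, n = 17 dogs). For neutrophils without PMN-MDSCs against M-MDSCs, a comparison chosen after the data were seen, its log2 fold change was -2.23 (SE 0.139, adjusted p = 1.07e-15), where 16.9% of 11987 genes were higher and 26.5% lower. CAMP (2.09, SE 0.532), PGLYRP1 (4.21, SE 0.502), MMP8 (3.44, SE 0.399), MMP9 (2.16, SE 0.305), CD177 (4.69, SE 0.458) and TCN1 (4.12, SE 0.417) were higher in neutrophils there, and LYZ (-3.16, SE 0.139) and BPI (-5.58, SE 0.228) lower.

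Against all monocytes, neutrophils were higher in 7 members and lower in BPI and LYZ, where 18.6% of 14384 genes were called higher and 30.1% lower, 48.7% in all. CAMP was higher by 13.74 on the log2 scale (SE 0.346), PGLYRP1 by 12.56 (SE 0.380), MMP8 by 10.99 (SE 0.351), CD177 by 10.90 (SE 0.311), TCN1 by 10.27 (SE 0.485) and MMP9 by 8.78 (SE 0.487). Monocytes held few UMIs of these genes (CD177 15, TCN1 31, MMP8 34, PGLYRP1 84, MMP9 146 and CAMP 212 in 15194 cells), so the folds rest on counts near 0.

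BPI, which binds the lipopolysaccharide of Gram-negative bacteria and is known as a primary granule protein, behaved here as a gene of monocytes. Other monocytes carried between 591 and 1249.8 CPM (median 1041, n = 17), M-MDSCs between 143 and 873 CPM (median 514) and all neutrophils between 0 and 109.7 CPM (median 26.3). Every dog's monocytes lay above every dog's neutrophils. The log2 fold change of neutrophils against monocytes was -5.10 (SE 0.295, 34.3-fold lower, adjusted p = 3.35e-14). Monocytes exceeded T and NK cells in BPI by 8.46 on the log2 scale (SE 0.210, 352-fold). After thinning, 59.7% of other monocytes (58.9 to 60.6%), 32.7% of M-MDSCs, 5.25% of PMN-MDSCs and 0.364% of T and NK cells had a BPI UMI.

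LYZ was high in most monocytes. It lay between 13619 and 29370.2 CPM (median 20626.5, n = 17) in other monocytes and between 9713 and 29975 CPM (median 19632) in M-MDSCs, 2 ranges that overlapped nearly throughout. Within the other monocytes, a cluster of 1622 cells from 17 dogs was lower, at 390 to 5569 CPM (median 2154), and 66.5% of its cells had an LYZ UMI, while the main cluster of 10425 cells lay between 15674 and 29886 CPM. Below them came PMN-MDSCs (mean 8752 CPM), conventional dendritic cells (5963 ± 1566 SD, n = 11) and other neutrophils (2320 ± 2059 SD, n = 17). OS dog 6 set the top of the other neutrophils, with 10103 CPM, while the other 16 dogs lay at 2659 CPM or below. Neutrophils as a whole were lower than monocytes (log2 fold change -2.36, SE 0.193, 5.12-fold lower). Against T and NK cells, monocytes were higher in LYZ by 9.40 (SE 0.217, 674-fold) and in LTF by 6.92 (SE 0.275, 121-fold), where 24.3% of 15825 genes were called higher and 27.1% lower (51.4% in all). The other 6 members did not pass both thresholds between monocytes and T and NK cells (log2 fold changes between -0.90 and 1.59, adjusted p between 0.0129 and 0.549 with edgeR). MMP9 was called lower in 3 of 7 alternatives (log2 fold change down to -1.19) and TCN1 higher in 1 of 7 (1.72).

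B cells carried LYZ as well, at a lower level. In 17 dogs it lay between 308 and 1274 CPM in B cells (median 692) and between 15.9 and 109 CPM in T and NK cells (median 33.9), and the groups did not overlap. The difference was 4.24 on the log2 scale (SE 0.169, 18.9-fold, adjusted p = 2.82e-18), in 17 of 17 dogs, where 14.5% of 15459 genes were called higher and 16.4% lower. After thinning, 44.2% of B cells (43.1 to 45.4%) and 3.84% of T and NK cells (3.66 to 4.03%) had a LYZ UMI, while without thinning the shares were 80.4 and 17.6% at medians of 4021 and 5328 UMIs. Of the LYZ UMIs of B cells, 84.5% lay in cells with at least 3. The B cell clusters differed, with pooled levels of 740, 1299 and 150 CPM. MMP9 was lower in B cells than in T and NK cells (-2.12, SE 0.373, adjusted p = 2.02e-05), and the other 7 members were not called. CD177 had no UMI in the B cells of any dog, which allows at most 0.0977 CPM (3 counts of their UMIs).

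The order of the classes by mean level therefore differed between members, as the plot of levels by class shows. For LTF it ran from PMN-MDSCs to M-MDSCs, which were higher than other neutrophils in 17 of 17 dogs. Other neutrophils (227 ± 142 CPM, SD, n = 17), eosinophils and basophils (131 ± 83.8, n = 15) and other monocytes (63.4 ± 34.8, n = 17) followed. From M-MDSCs down, the ranges of neighbouring classes overlapped. For CAMP, MMP8, PGLYRP1, TCN1 and CD177 only the step from PMN-MDSCs to the next class had ranges that did not overlap, while the ranges of neighbouring classes below it did. For MMP9 the eosinophils and basophils (127 ± 236 CPM, n = 15) came next and overlapped the other neutrophils (23.4 ± 9.74, n = 17). For LYZ the steps from M-MDSCs to PMN-MDSCs and from PMN-MDSCs to conventional dendritic cells did not overlap in the dogs that had both. Some class means rested on single cells. In eosinophils and basophils, where MMP9 had a median of 59.3 CPM, 77 of the 120 MMP9 UMIs of healthy dog 4, the highest of the 15 dogs, came from 1 cell, and 64 of 116 CAMP UMIs came from 1 cell of OS dog 4, and in plasma cells 48 of 53 CAMP UMIs and 155 of 156 PGLYRP1 UMIs from 1 cell of OS dog 5.

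**Figure D2:**
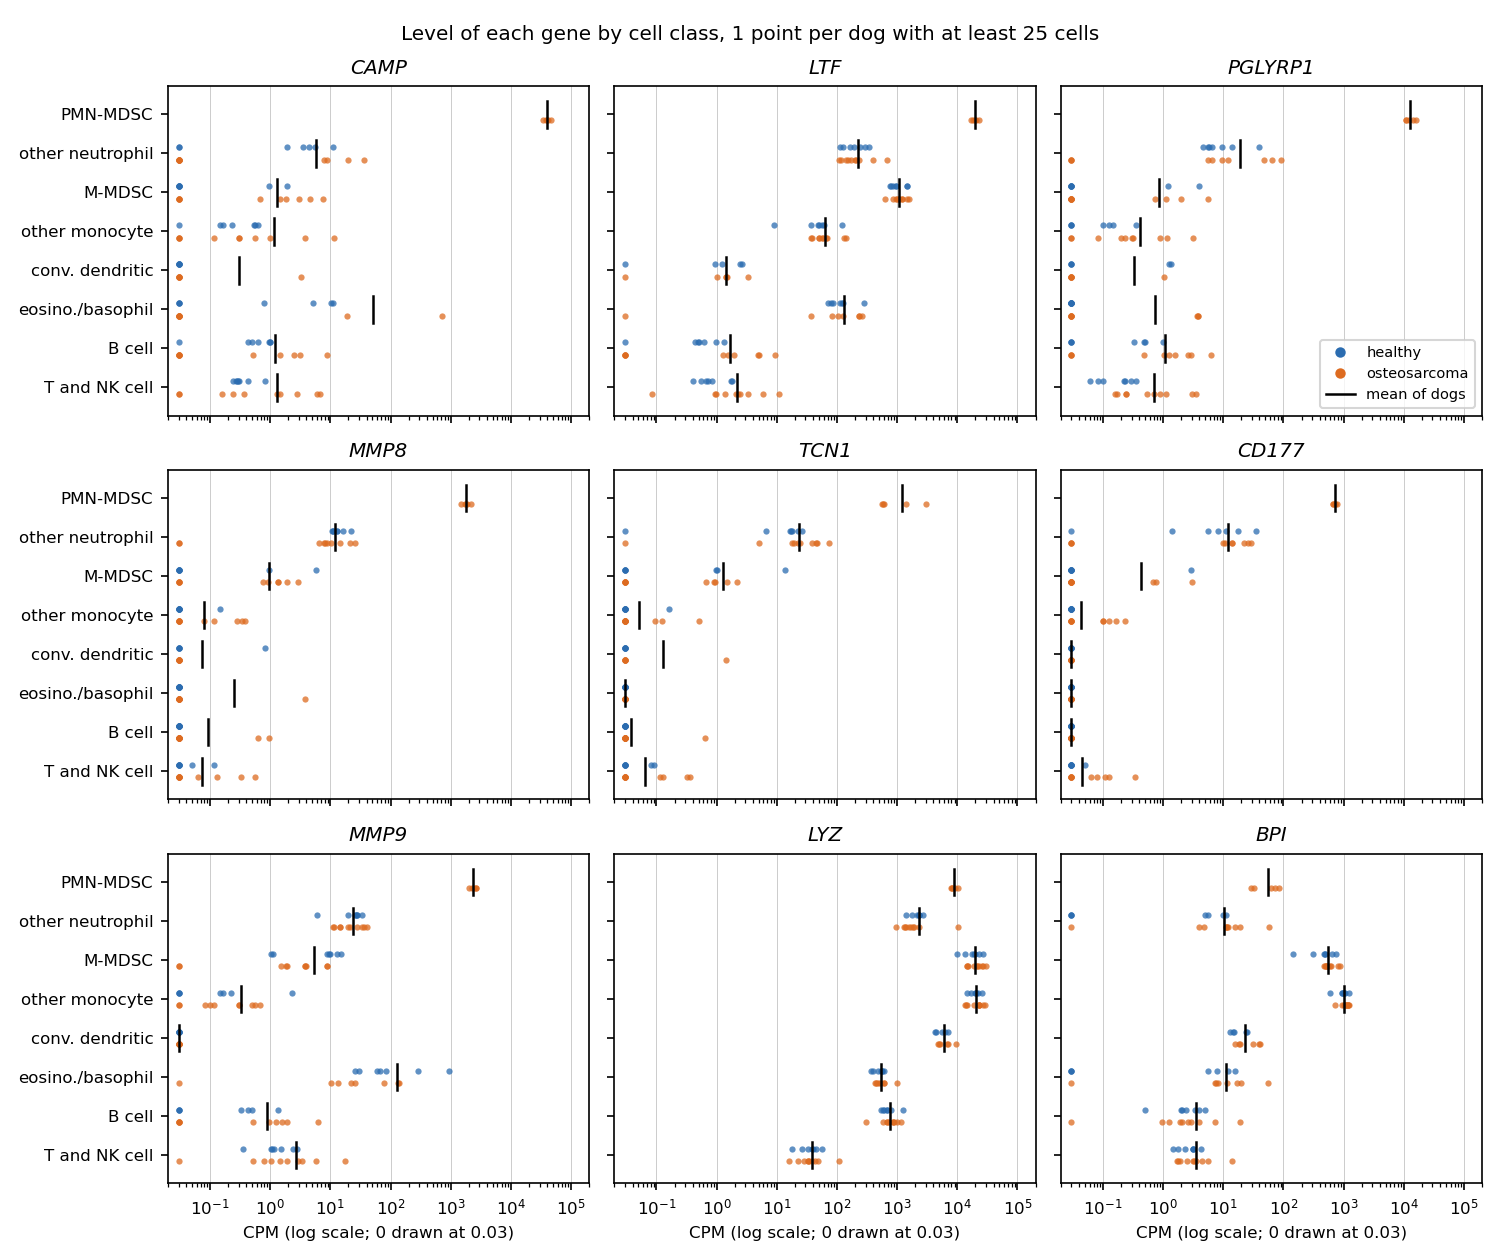
CPM of each of the 9 genes (x axis, log scale) in the summed cells of 8 classes (y axis), 1 point per dog with at least 25 cells and a bar at the mean of dogs, healthy and OS dogs in different colors, with 0 drawn at 0.03. PMN-MDSCs are the highest class for 7 genes, M-MDSCs stand out for LTF (mean 1070 CPM), and monocytes are highest for BPI and LYZ.

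Cells positive for CAMP and cells positive for LTF without CAMP belonged to different classes. Of 626 cells with at least 3 CAMP UMIs, 619 (98.9%) were PMN-MDSCs. Of these 626 cells, 97.0% had an MMP8 UMI, 95.2% an MMP9 UMI, 90.3% a TCN1 UMI, 88.5% a CD177 UMI and 85.1% a PGLYRP1 UMI. The 3074 cells with at least 3 LTF UMIs and none of CAMP were M-MDSCs (58.7%), other monocytes (34.6%) and other neutrophils (4.001%), and from 0.325% (CD177) to 2.73% (MMP9) of them had a UMI of those 5 genes, while 84.3% had a BPI UMI.

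Along the summed number of CAMP and LTF UMIs, the other granule genes were high in the bin that PMN-MDSCs filled. Cells with 3 to 9 such UMIs (2017) were mostly M-MDSCs (47.5%) and other monocytes (43.3%), cells with 10 to 29 (1038) were M-MDSCs (77.5%), and cells with 30 or more (718) were PMN-MDSCs (89.4%). PGLYRP1 stood at 2.47, 56.7 and 9439 CPM in these 3 bins, MMP8 at 1.36, 2.66 and 1555, and MMP9 at 4.75, 8.22 and 1869. TCN1 (0.926, 0.579 and 1070 CPM) and CD177 (0.432, 1.62 and 619 CPM) were likewise high in the last bin alone, and BPI was lowest there (775, 687 and 157 CPM). LYZ ran from 6182 CPM in cells without CAMP or LTF UMIs to 21928 CPM in the bin of 10 to 29 and 11890 CPM in the last bin. These are pooled values of cells from all dogs, given as a description with no test.

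Within the PMN-MDSCs, PGLYRP1 and MMP9 ran the other way from CAMP. To look at this, the PMN-MDSCs of each of the 5 dogs were divided into 3 groups of near-equal size. The division was by the share of their UMIs that were PGLYRP1 (193, 190 and 193 cells in all). It was chosen after the data were seen, so its values are a description with no test. OS dogs 4 and 7 had only 39 and 35 PMN-MDSCs to divide. Each of their groups thus held fewer cells than the minimum set for levels elsewhere. CAMP measured 53839, 57890, 57729, 45608 and 50759 CPM in the low-PGLYRP1 group of OS dogs 2, 4, 5, 7 and 9. In the high-PGLYRP1 group it measured 23537, 26382, 27172, 29152 and 27083 CPM. All 5 dogs were lower in the high-PGLYRP1 group, and the groups did not overlap. The middle group had a mean of 36936 CPM, between the others.

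LYZ measured 15976, 15590, 17404, 12696 and 12934 CPM in the low-PGLYRP1 group of the same dogs, and 3834, 3990.3, 4391, 4828 and 3818 CPM in the high-PGLYRP1 group. It too was lower in the second in every dog, without overlap, with a mean ratio of 3.58. MMP9, the tertiary granule gene, ran the other way, with 991, 1519, 1371, 2263 and 1960.0 CPM in the low-PGLYRP1 group and 3191, 4031, 3012, 2680.3 and 3271 CPM in the high-PGLYRP1 group. Every dog's high-PGLYRP1 group exceeded every dog's low-PGLYRP1 group in MMP9. The middle group did not lie between the others in every dog. In OS dog 7, as the plot of these groups shows, CAMP was lowest (25342 CPM) and MMP9 highest (3101 CPM) in the middle group. That dog had the fewest PMN-MDSCs of the dogs divided, so its values rest on few cells.

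**Figure D3:**
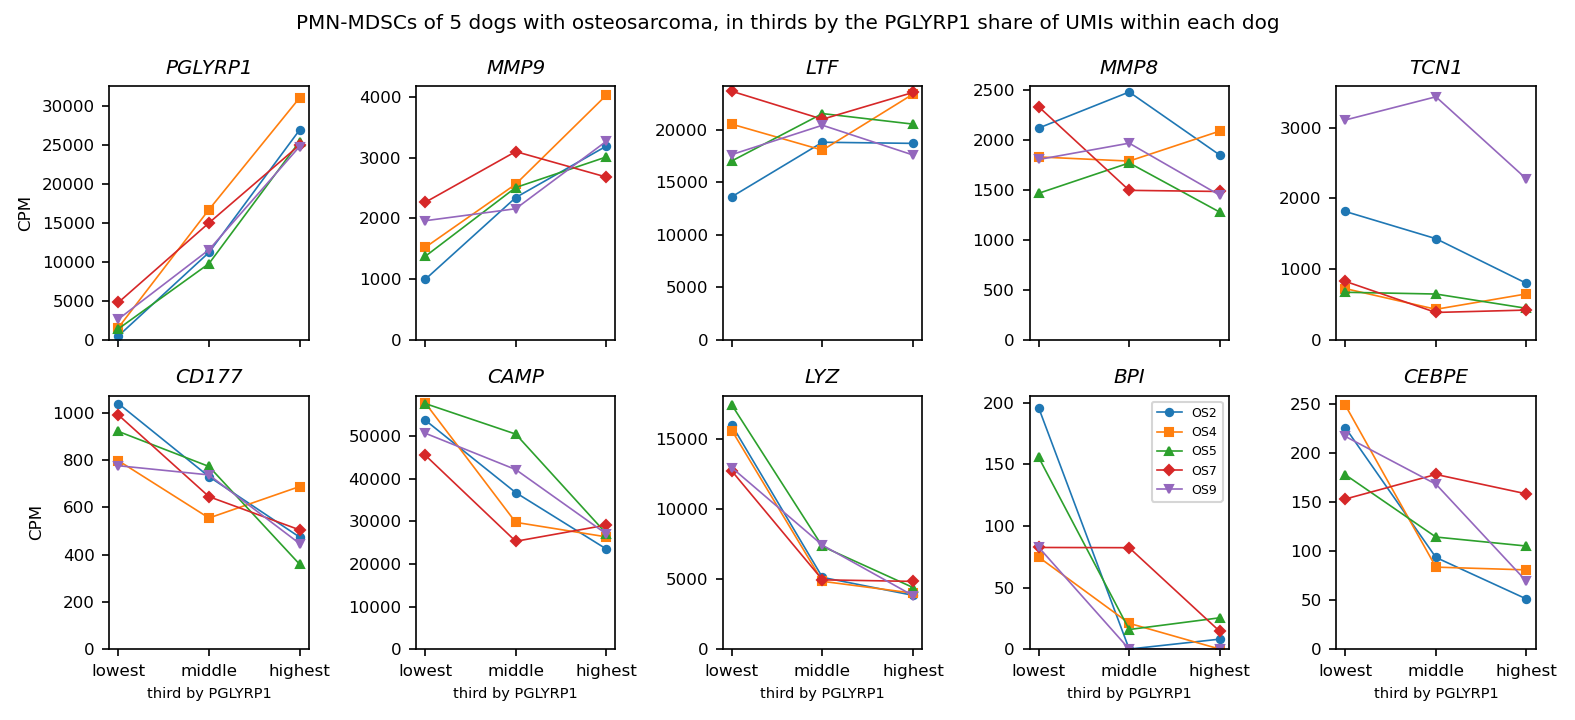
CPM (y axis, from 0) of the 9 genes and CEBPE in PMN-MDSCs grouped by the share of PGLYRP1 among their UMIs (x axis, low, middle and high group within each dog), 1 line per dog for OS dogs 2, 4, 5, 7 and 9. Mean CAMP goes from 53165 to 26665 CPM and mean LYZ from 14920 to 4172 CPM between the low and the high group, while mean MMP9 goes from 1621 to 3237 CPM.

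The remaining members were spread between these patterns. BPI, the primary granule gene, was lower in the high-PGLYRP1 group in 5 of 5 dogs (mean 118 against 9.58 CPM, from 196 and 11 UMIs). CD177 (904 against 494 CPM) and TCN1 (1429 against 916 CPM) were lower there in 5 of 5 dogs as well, and MMP8 in 4 of 5 (1911 against 1629 CPM). LTF was near level, at 18489 CPM in the low and 20749 CPM in the high-PGLYRP1 group, and higher in the latter in 3 of 5 dogs. Among related genes that are not members, ABCA13 and LCN2 were higher in the low-PGLYRP1 group in 5 of 5 dogs (LCN2 481 against 193 CPM). LCN2, which encodes the iron-siderophore binder lipocalin, ran there from 12.5 CPM in OS dog 4 to 1614 CPM in OS dog 9, which set much of its mean. CHI3L1 and SLPI were higher in the low-PGLYRP1 group in 3 of 5 dogs each. PTX3 was higher in the low-PGLYRP1 group in 2 dogs and in the high-PGLYRP1 group in 3. The tertiary granule list was divided, with CFP higher in the low-PGLYRP1 group (484 against 290 CPM) and SLC11A1 (42.2 against 90.2 CPM) and MMP25 (1 against 10 UMIs) higher in the high-PGLYRP1 group, each in 5 of 5 dogs. BPI UMIs were found in 41.5% of the low-PGLYRP1 and 4.66% of the high-PGLYRP1 cells, and those of the cell cycle gene RRM2 in 11.9 and 1.04%. In the low-PGLYRP1 group 54 RRM2, 39 TOP2A, 35 MKI67, 44 ELANE and 10 MPO UMIs were counted, the 44 of elastase in 1 cell of OS dog 5, against 2, 0, 0, 0 and 0 in the high-PGLYRP1 group. The TOP2A UMIs of the low-PGLYRP1 group all came from OS dogs 2 and 5, and OS dogs 4 and 7 had no MKI67 UMI there.

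Markers of other cells moved with this division in part. The median cell held 6198 UMIs in the low-, 5566 in the middle and 4878 in the high-PGLYRP1 group. The monocyte list without RETN stood at 5.31, 3.79 and 3.59% of its level in other monocytes, the T and NK list at 3.01, 4.86 and 0.473% of its level in that class, and RETN itself, on the monocyte list, at 2064, 305 and 48.4 CPM against 347 CPM in other monocytes. The list of eosinophil and basophil markers rose to 18.2, 32.8 and 48.01% of its own class, which came mostly from PADI3 (1245, 2302 and 3467 CPM), while IL5RA had 3, 2 and 3 UMIs. In the cells with at least 3 CAMP UMIs and none of 8 monocyte and T cell genes (148, 147 and 158 cells), a choice that itself uses CAMP, the low- and high-PGLYRP1 groups stood at 55612 and 28490 CPM for CAMP, 14940 and 4188 CPM for LYZ, 114 and 7.62 CPM for BPI and 1634 and 3235 CPM for MMP9. The part of depth and of other cells in these differences was not tested.

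Over single PMN-MDSCs, each thinned to 1000 UMIs (667 cells), Spearman's rho was -0.47 between CAMP and PGLYRP1, 0.48 between CAMP and LYZ, and 0.44 between PGLYRP1 and MMP9. In the 5 dogs taken apart, the first ran from -0.63 to -0.44, the second from 0.47 to 0.59 and the third from 0.27 to 0.52. CAMP was also above 0 in 5 of 5 dogs with TCN1 (0.30 over all cells), CD177 (0.28), MMP8 (0.28) and BPI (0.13), and below 0 in 5 of 5 with MMP9 (-0.20). The cells share their dog and library, so these values carry no p.

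Other genes of neutrophil granules, taken from lists of each granule type, were then set beside the members. Secondary granule genes as a list were higher in PMN-MDSCs than in other neutrophils in 11 of 12 tested, members included, with a median log2 fold change of 6.43 against 0.06 over all genes, of which 15.2% were called higher. Of the 5 that are not members, 4 were higher. PTX3, a soluble pattern receptor, was higher by 9.58 (SE 0.389) and LCN2 by 7.77 (SE 0.452) on the log2 scale. The tertiary list was divided, with MMP9 and CFP (2.56) higher, MMP25 (-2.73) and SLC11A1 (-1.34) lower and 1 of 5 not called. Of 4 primary granule genes, BPI and ELANE (4.72, 45 UMIs in 2 PMN-MDSCs) were higher. Of the genes of secretory vesicles and the cell surface, FPR2 (3.76) was higher and the chemokine receptor CXCR2 (-2.78) lower. Of 4 transcription factors of granule genes, CEBPE (3.72), which also served to name the cluster, and RUNX1 (0.83) were higher and GFI1 (-0.91) lower. Of 4 cell cycle genes TOP2A (5.16) and RRM2 (4.07) were higher. TOP2A stood at 23.6 CPM in the PMN-MDSCs of OS dog 2 and 8.42 CPM in OS dog 5, and had no UMI in OS dogs 4, 7 and 9.

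Between all neutrophils and monocytes, 10 of 12 secondary granule genes, members included, were higher in neutrophils and LYZ lower, beside 18.6% of all genes higher and 30.1% lower. Of the 5 that are not members, 4 were higher. MPO and ELANE, which define primary granules, were higher in neutrophils but low in level (2.11 and 2.53 CPM on average of 17 dogs), while CTSC was lower along with BPI. In M-MDSCs against other monocytes, 6 of 11 secondary genes were higher (MMP8, LCN2, LTF, ABCA13, TCN1 and SLPI) and none lower, beside 7.17% of all genes higher and 13.8% lower. Of the 4 that are not members, 3 were higher. By mean level in all neutrophils of 17 dogs the highest genes of each list beside the members were PTX3 (151 CPM), LCN2 (119) and SLPI (94.5) of secondary granules, SLC11A1 (171), CFP (164) and MMP25 (26.6) of tertiary granules, and ITGAM (679), FPR2 (41.1) and CXCR2 (21.5) of secretory vesicles and the surface. Of the transcription factors they were SPI1 (671 CPM), RUNX1 (377) and GFI1 (223), and of the other lysozymes and peptidoglycan recognition proteins PGLYRP2 (31.9) and LYG1 (16.9), while CTSC stood at 13.8, RRM2 at 5.98 and MKI67 at 5.25 CPM. OLFM4, FCN1, ALPL and LYZL4 had no UMI in neutrophils. AZU1, CTSG, PRTN3, CRISP3, HP, CR1, FPR1, PGLYRP3, PGLYRP4, CEBPA, CEBPD and TREML1 were not analysed here.

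Whether the circulating leukocytes of dogs with OS differ from those of healthy dogs in these genes was asked first in the sum of all cells of a dog, where fewer cells of a type and less RNA per cell cannot be told apart. CAMP lay between 23.0 and 179 CPM in healthy dogs (median 104, n = 7) and between 0 and 1404 CPM in dogs with OS (median 187, n = 10). LTF lay between 50.1 and 185 CPM (median 72.8) and between 53.9 and 645 CPM (median 211). PGLYRP1 lay between 1.13 and 28.4 CPM (median 13.6) and between 0.0712 and 386 CPM (median 72.2). For CAMP, 5 of the 10 dogs with OS lay above all healthy dogs, for LTF and PGLYRP1 6 of 10, and OS dog 2 held the highest value of CAMP and OS dog 3 the lowest.

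The less abundant members had the same form. MMP8 lay between 1.32 and 10.4 CPM in healthy dogs (median 2.97) and between 0 and 75.4 CPM in OS (median 8.80), TCN1 between 0.731 and 5.52 (median 1.85) and 0.499 and 55.8 (median 3.37), and CD177 between 0.197 and 4.65 (median 1.75) and 0 and 27.6 (median 3.73). MMP9 lay between 3.20 and 47.4 CPM (median 8.55) and between 0.138 and 97.2 CPM (median 16.5). The groups overlapped in each, with between 4 and 5 dogs with OS above all healthy dogs. OS dog 3 had no UMI of CAMP, MMP8 or CD177 in 1222 cells, which allows up to 0.415 CPM (3 counts of its UMIs). LYZ lay between 3863 and 8409 CPM in healthy dogs (median 5770) and between 2881 and 14619 CPM in OS (median 7692), and BPI between 167 and 352 CPM (median 232) and between 162 and 717 CPM (median 370).

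No member passed the test in this comparison, in which 0% of 16269 genes were called. At an unadjusted p under 0.05 edgeR gave 933 genes, and DESeq2 called 3, none of them a member. The log2 fold change of OS against healthy was 3.20 (SE 1.14) for PGLYRP1, 2.51 (SE 0.930) for TCN1, 2.33 (SE 0.921) for MMP8, 2.20 (SE 1.06) for CAMP, 2.07 (SE 0.845) for CD177, 1.61 (SE 0.534) for LTF, 1.14 (SE 0.841) for MMP9, 0.60 (SE 0.294) for BPI and 0.53 (SE 0.321) for LYZ. The adjusted p ran from 0.736 to 0.882 with edgeR. The median of the members was 2.07 against -0.00 over all genes. With neutrophils and PMN-MDSCs taken out of the sum the values were 2.83 for PGLYRP1, 2.62 for CAMP, 1.62 for MMP8, 1.29 for CD177, 0.64 for LTF, 0.59 for BPI, 0.53 for LYZ, 0.28 for TCN1 and -0.38 for MMP9, which thus turned, and none was called. MMP9 over all cells was at 1.77 without healthy dog 5 and 0.75 without OS dog 2.

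The number of PMN-MDSCs differed widely between the same dogs. They made up between 0.0455 and 0.417% of the cells of healthy dogs (median 0.176%) and between 0.0613 and 4.29% in OS (median 0.522%), or between 1.25 and 7.61% of neutrophils in healthy dogs (median 3.60%) and between 1.18 and 60.1% in OS (median 9.78%). Within all neutrophils, CAMP lay between 1375 and 12316 CPM in healthy dogs (median 4712) and between 0 and 38602 CPM in OS (median 8953), and LTF between 914 and 3676 CPM (median 2113) and between 116 and 16287 CPM (median 5339). The groups overlapped, and 0% of 10616 genes were called in neutrophils (968 at an unadjusted p under 0.05 with edgeR, 0 by DESeq2). The log2 fold changes were 2.68 for PGLYRP1, 2.10 for MMP9, 2.05 for TCN1, 1.93 for LTF, 1.91 for MMP8, 1.75 for CD177, 1.67 for CAMP, 0.71 for LYZ and 0.58 for BPI, with adjusted p from 0.503 to 0.780. Without the PMN-MDSCs, CAMP was at 1.28 (SE 0.911), PGLYRP1 at 1.26 (SE 0.746), BPI at 1.21 (SE 0.612), TCN1 at 0.80 (SE 0.439) and CD177 at 0.40 (SE 0.541). LTF was then at 0.22 (SE 0.293), LYZ at 0.17 (SE 0.323), MMP9 at 0.17 (SE 0.352) and MMP8 at -0.16 (SE 0.426), and none was called. The plot of levels by dog shows the wide OS group beside the narrower healthy one.

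**Figure D4:**
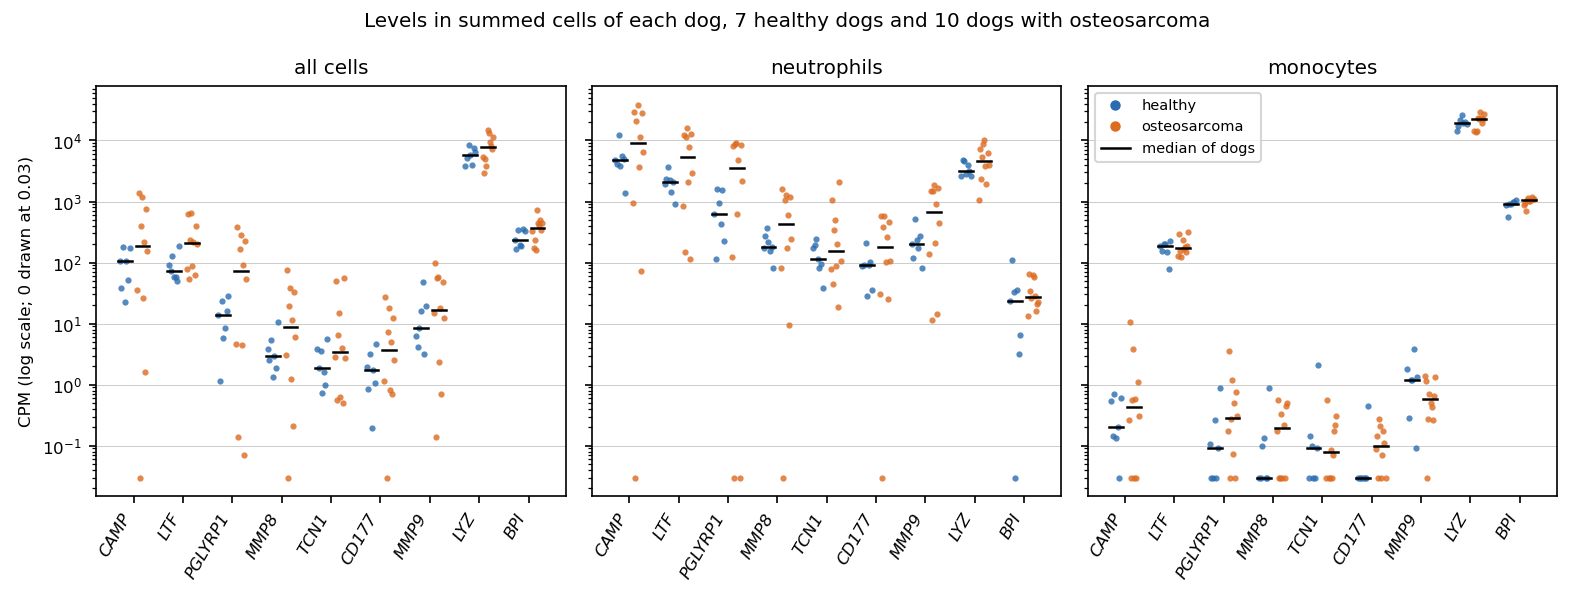
CPM (y axis, log scale) of each of the 9 genes (x axis) in all cells, in neutrophils and in monocytes (panels), 1 point per dog, 7 healthy and 10 with OS in different colors, and a bar at the median of dogs, with 0 drawn at 0.03. For CAMP in all cells the healthy dogs sit between 23.0 and 179 CPM and the dogs with OS between 0 and 1404 CPM, and the groups overlap for all 9 genes.

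In monocytes too the groups overlapped. LYZ lay between 14277 and 25882 CPM in monocytes of healthy dogs (median 19524) and between 13738 and 29439 CPM in OS (median 22425), BPI between 555 and 1054 CPM (median 924) and between 694 and 1199.7 CPM (median 1040.1), and LTF between 77.3 and 225 CPM (median 189) and between 124 and 317 CPM (median 173). Their log2 fold changes were 0.16 (SE 0.200), 0.24 (SE 0.147) and 0.25 (SE 0.230). The members with few UMIs in monocytes were at 2.41 (SE 1.04) for CAMP, 1.90 (SE 0.923) for PGLYRP1, 0.90 (SE 0.870) for CD177, 0.73 (SE 0.870) for MMP8, -0.82 (SE 0.538) for MMP9 and -1.07 (SE 0.915) for TCN1. Single dogs set several of these values. Without healthy dog 7, TCN1 turned to 1.13, and CD177 stood at 3.26, PGLYRP1 at 2.96 and MMP8 at 2.31. Without OS dog 2, CAMP stood at 1.36 and PGLYRP1 at 1.17, and without healthy dog 5 MMP9 stood at -0.39. TCN1 was also above 0 with doublets kept (1.28) and without correction across dogs (1.27). None passed (adjusted p from 0.794 to 0.921), and 0% of 14140 genes were called (833 at an unadjusted p under 0.05 with edgeR, 0 by DESeq2). In PMN-MDSCs of dogs with at least 10 of them (3 healthy, 7 OS), a comparison added after the data were seen, PGLYRP1 was at 1.05 (SE 0.438, adjusted p = 0.865), TCN1 at 0.46, MMP9 at 0.45, LTF at 0.28, MMP8 at 0.26, CD177 at -0.04, CAMP at -0.09, LYZ at -0.27 and BPI at -0.50, with 0% of 8202 genes called (409 at an unadjusted p under 0.05 with edgeR).

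The share of cells with at least 3 UMIs of CAMP and LTF together, a count in which each dog gives 1 value, did differ. It lay between 1.99 and 4.38% in healthy dogs (median 3.53%, mean 3.18% ± 1.02 SD, n = 7) and between 2.33 and 14.4% in OS (median 5.11%, mean 5.997% ± 3.37 SD, n = 10). The groups overlapped, with 9 of 10 dogs with OS above the healthy median (p = 0.00967 by a two-sided Wilcoxon test with exact p, the smallest possible being 0.000103). The difference of the means was 2.81 percentage points, and 1.88 without OS dog 5, which was highest. With each cell thinned to 1000 UMIs and counted from 1 UMI it was 1.83 (exact p = 0.109). Among neutrophils alone, where only positive neutrophils were counted, it was 15.2 (exact p = 0.270), a share of other cells than the first. Neither passed 0.05. Split by gene, the share with at least 3 CAMP UMIs differed by 0.965 (exact p = 0.475) and that with at least 3 LTF UMIs and no CAMP by 1.73 (exact p = 0.0702).

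T and NK cells, which are not known as a source of secondary granule proteins, carried few UMIs of most members. CAMP lay between 0 and 6.78 CPM there (median 0.298) in 17 dogs, with 376 UMIs in 351 of 43136 cells, 97.2% of those cells holding 1 UMI. Over all dogs, the pooled level in T and NK cells was between 0.235 and 0.536% of that in the other cells for 8 members, and 6.41% for MMP9. Between dogs the level of CAMP in T and NK cells followed that in the other cells of the same dog, with Pearson's r = 0.880 (permutation p adjusted over 9 genes 0.00045) and Spearman's rho = 0.965 (adjusted permutation p = 9e-05). Without OS dogs 2 and 9, the farthest from the median, r was 0.956, and it was 0.564 in the 7 healthy dogs (adjusted permutation p = 0.362) and 0.865 in the 10 dogs with OS (0.0063).

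PGLYRP1 gave r = 0.868 (adjusted permutation p = 0.00108) and rho = 0.777 (0.00119), and r = 0.752 without OS dogs 2 and 4. TCN1 gave r = 0.911 (0.00246) and rho = 0.490 (0.0613), but r rested on OS dogs 2 and 9, without which it was 0.233, and it was -0.530 in the healthy dogs (adjusted permutation p = 0.373). LTF had rho = 0.779 (adjusted permutation p = 0.00119) and r = 0.657 (0.0781), MMP8 rho = 0.757 (0.00119) and r = 0.5799 (0.0781), and CD177 rho = 0.548 (0.0363) and r = 0.421 (0.0781). The T and NK cells of all dogs held only 21 TCN1, 19 MMP8 and 11 CD177 UMIs. The median dog was at 0 CPM for each, so the relations of these genes rest on few counts. BPI (r = 0.505, adjusted permutation p 0.0781; rho = 0.230, 0.418) and LYZ (r = 0.301, 0.271; rho = 0.203, 0.429) showed no relation past the threshold. MMP9 stood apart, with r = 0.161 (0.441) and rho = 0.696 (0.00502). OS dog 1 had the most MMP9 in T and NK cells, 283 of the 781 UMIs, and without it r was 0.844. In that dog 34 T and NK cells held at least 3 MMP9 UMIs, of 47 in all dogs.

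**Figure D5:**
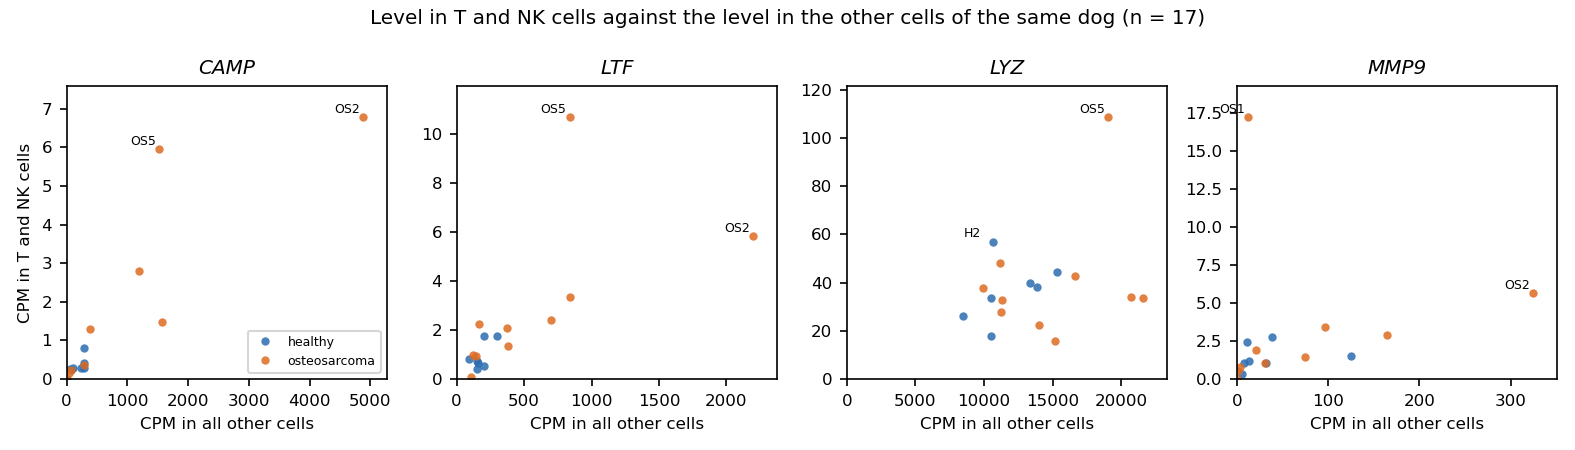
CPM of CAMP, LTF, LYZ and MMP9 in T and NK cells (y axis) against the CPM in the other cells of the same dog (x axis), both linear and from 0, 1 point per dog, 7 healthy and 10 with OS in different colors, the highest dogs on the y axis named. CAMP lies close to a line (r = 0.880), LTF and LYZ scatter more (r = 0.657 and 0.301), and MMP9 (r = 0.161) has OS dog 1 above the others at 17.2 CPM.

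MMP9 was also found outside the classes above. An unnamed cluster of 42 cells from 5 dogs (18 in healthy dog 5, 14 in OS dog 4) held MMP9 at 16373 CPM, with 1 CAMP and 0 LTF UMIs, and was led by MMP1, HPGD and CPA3, the gene of a mast cell protease. Its highest marker list was that of eosinophils and basophils (mean log2 fold 1.97, 8 markers detected). It stayed unnamed because it held under 50 cells.

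The genes most like CAMP in their pattern over 138 sums of cells (10 classes in 17 dogs, 7666 genes compared by Pearson's r of levels) were PTX3 (0.885), PGLYRP1 (0.873), MMP8 (0.841), CD177 (0.753) and ENSCAFG00000020220 (0.746), and LTF came at rank 27 (0.520). Those most like LYZ were CTSH (0.923), PLBD1 (0.915), ARHGAP45 (0.883), SNX3 (0.880) and ATG3 (0.868), and BPI came at rank 49 (0.803). The sums share dogs and libraries, so these values are a description.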

How the data were processed

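Single-cell 3′ libraries of 17 dogs (7 healthy, 10 with OS) were used, 1 per dog. The deposited values are counts of UMIs per gene and cell, filtered to cell barcodes by the authors. The submitters' processing notes name Cell Ranger 7.0.0, Seurat and CanFam3.1. The authors counted with and without introns, and which of the 2 was deposited is not given in the sources used here. No genome of that build was used, so no sequence or position is printed. The 9 members and the other gene lists were chosen with earlier results of these data known.

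Of 93013 barcodes, those with 200 to 4500 genes, 500 to 20000 UMIs and at most 10% mitochondrial UMIs were kept (84345), and 3938 doublets (expected at 0.8% per 1000 barcodes), 3300 platelets and 197 erythrocytes were removed. Cells were clustered with scanpy 1.11.5, igraph 0.11.9 and leidenalg 0.10.2 in Python 3.11.15 (2000 variable genes, 30 components, 20 neighbours, resolution 1, seed 1), with correction across dogs and without granule genes. Clusters took the name of their highest marker list (mean log2 fold of at least 1.5 against all other clusters, at least 3 markers detected) where CD3E and CD3G were under 10% of the highest cluster, and M-MDSCs also needed 1 or more on the monocyte list. Clusters at 10% or more with no list past that fold were T and NK cells. Those at 10% or more with a list past it (1 by the CD34+ list, 2 by the platelet list), those under 50 cells, and 1 shallow cluster led by none of its list's genes stayed unnamed, with limits set after the clusters were seen, so names mean resemblance, and differences from the study may come from rebuilt names.

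Counts were summed per dog and class (at least 25 cells) and tested with edgeR 4.0.16 (limma 3.58.1, R 4.3.3), quasi-likelihood, TMM, genes with at least 10 counts, with the dog as a block between classes. Calls needed a Benjamini-Hochberg adjusted p under 0.01 and a log2 fold change beyond 0.58 over all genes tested. The clustering and the fits were tested on simulated data. DESeq2 1.42.0 was an alternative. Shares were tested with an exact Wilcoxon test and correlations with 100000 permutations (scipy 1.17.1). Cells were thinned to 1000 UMIs to compare shares of cells with a UMI. A count of 0 was read as at most 3 counts. Intervals are exact Clopper-Pearson at 95% and cover counting error only.

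All 9 members were tested in every comparison and are given by value, range or count. Of each other granule list, at most 3 genes past both thresholds between OS and healthy dogs were to be named, of which there were none, and the 3 of highest CPM in neutrophils. For CAMP and LYZ the 5 most alike genes are given. Other list genes named between classes were chosen after their values were seen.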

Additional observations from a re-analysis of the deposited data

Results flagged for a closer look

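A dog was set apart where its gap to the nearest other dog, over the range of its group, passed Dixon's 95% value. Of 74 groups of 7 or 10 dogs, 22 held such a dog. The value assumes normally distributed data, where about 1 in 20 groups would pass. Many levels here lay near 0, so the 22 cannot be set against that rate. In 2 of the 22, CD177 in monocytes and in T and NK cells of healthy dogs, all other dogs were at 0, so that any UMI set a dog apart. OS dog 2 was highest in MMP8 over all cells (75.4 CPM) and in CAMP (10.8 CPM), PGLYRP1 (3.55 CPM) and TCN1 (0.568 CPM) of monocytes. OS dog 5 was highest in T and NK cells for LYZ (109 CPM), BPI (14.1 CPM) and CD177 (0.338 CPM), and in the share of cells with at least 3 CAMP and LTF UMIs (14.4%). OS dog 9 was highest in TCN1 of neutrophils (2055 CPM), and OS dog 1 in MMP9 of T and NK cells (17.2 CPM).

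Among healthy dogs, dog 3 was highest in CAMP (12316 CPM) and CD177 (211 CPM) of neutrophils, and dog 2 was highest in BPI of neutrophils (109.7 CPM) and lowest in BPI of monocytes (555 CPM). Healthy dog 7, rich in neutrophils, was highest in monocytes for MMP8 (0.897 CPM), PGLYRP1 (0.897 CPM), CD177 (0.448 CPM) and TCN1 (2.09 CPM) and in T and NK cells for CAMP (0.813 CPM) and MMP8 (0.116 CPM). Healthy dog 5 was highest in MMP9 over all cells (47.4 CPM), and healthy dog 1 in CD177 of T and NK cells (0.0497 CPM). In the unnamed cluster of 42 cells, outside the comparisons, MMP9 stood at 16373 CPM. No contrast between classes differed between healthy and OS dogs among 36 compared (smallest adjusted p = 0.560 by the exact Wilcoxon test).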

How the results depend on the processing

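No member was called between OS and healthy dogs in any setting. DESeq2 called 3 genes in all cells against 0 with edgeR. The share of cells with at least 3 UMIs of CAMP and LTF was 2.81 percentage points higher in OS. It no longer passed from 1 UMI (3.90), thinned (1.83) or as the share of positive cells among neutrophils alone (15.2). Nor did it pass, chosen after seeing the data, for CAMP alone (0.965) or LTF without CAMP (1.73). The causes were not tested. Leaving out 1 dog gave 1.88 to 3.22. Same-numbered dogs are unrelated animals that share only a number (correlation of deviations -0.187 to 0.249, 1 of 7 best with its own number), and with the replicate block the difference was 2.83 (exact p = 0.0469) and the 3 counts of called genes stayed at 0. Between monocytes and T and NK cells MMP9 became called with DESeq2 (-0.91), with granule genes in the clustering (-1.04) and without correction across dogs (-1.19), and TCN1 with doublets kept (1.72), and between M-MDSCs and other monocytes TCN1 lost its call with DESeq2 (3.71). LTF reversed for neutrophils without PMN-MDSCs against M-MDSCs (-2.23).

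Without 1 dog, the counts of called genes in all cells, monocytes and neutrophils ran from 0 to 0, in PMN-MDSCs between OS and healthy from 0 to 2 (2 without healthy dog 3), and between PMN-MDSCs and other neutrophils from 2360 to 2597. The relation of T and NK cells to other cells (r) passed with doublets kept for LTF (0.725) and MMP8 (0.731), and on log2(CPM + 1) for LTF (0.836), MMP8 (0.673), MMP9 (0.515) and CD177 (0.585). Without 1 dog r ran from 0.646 to 0.926 for LTF, 0.824 to 0.972 for CAMP, 0.573 to 0.938 for MMP8, 0.00313 to 0.844 for MMP9, 0.410 to 0.700 for CD177, 0.717 to 0.983 for PGLYRP1, 0.852 to 0.938 for TCN1, 0.0929 to 0.573 for BPI and -0.00392 to 0.393 for LYZ. Low counts limit CD177, TCN1 and MMP8 outside PMN-MDSCs, and 5 dogs limit every value within them. With doublets kept no cluster was named M-MDSC, so that comparison has no value there.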

Other observations

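The 42 cells of the unnamed cluster with MMP9 came from healthy dogs 5 (18 cells), 4 (4) and 7 (2) and from OS dogs 4 (14) and 2 (4), and MMP9 lay between 8907 and 27171 CPM in these dogs. In the T and NK cells of OS dog 1, MMP9 was concentrated in cluster 1, where it stood at 60.6 CPM against at most 21.2 CPM in any other dog.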
